A study of Mus musculus with 32 samples.

Results

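Insulin-like growth factor (IGF) signalling was followed through 10 genes in whole muscles of mice that lacked TGF-β type I receptors in their muscle fibres. The 10 genes were the ligands Igf1 and Igf2, the receptor Igf1r, the binding proteins Igfbp3, Igfbp4 and Igfbp5, the adaptors Irs1 and Irs2, the kinase Akt2 and the mTOR regulator Ddit4l. They were taken by gene symbol from a count table of 55487 genes, and all 10 passed the filter on low counts in both muscles. The study had 4 genotypes: control, Acvr1b KO, Tgfbr1 KO and double KO, the last lacking both receptors. Acvr1b encodes ALK4, a type I receptor used by activins and myostatin. Tgfbr1 encodes ALK5, a type I receptor used by TGF-β and by other ligands of its family. Per the labels, tamoxifen given to mice aged 6 weeks deleted the receptors in myofibres alone, and muscles were taken 3 months afterwards. The promoter that drove the recombinase, and whether control mice carried floxed alleles or received tamoxifen, are not given in the sources used here. Polyadenylated RNA of the left gastrocnemius medialis, a fast muscle, and of the left soleus, a slow muscle, was sequenced from 4 mice of each genotype, which gave 32 libraries from 16 mice.

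IGF1 and IGF2 bind the IGF1 receptor, a tyrosine kinase that phosphorylates the IRS adaptor proteins. These recruit PI3-kinase, which activates AKT, and AKT in turn raises mTORC1 activity and keeps FoxO transcription factors out of the nucleus. A family of high-affinity binding proteins holds IGFs in the circulation and in the matrix around cells, and proteases that cut them set the IGFs free. In skeletal muscle the pathway is known as a driver of protein synthesis and fibre growth, while myostatin and activins act through SMAD2 and SMAD3 to limit muscle mass.

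Library totals ranged from 16535498 to 54456977 counts. The values below are CPM, counts scaled to the size of each library, on one TMM scale for all 32 libraries, and "log2 change" is the edgeR estimate with its standard error (SE). A gene was called when its Benjamini-Hochberg adjusted p over all genes tested in that fit was under 0.05. Acvr1b fell from 94.2 to 117 CPM in the 4 control gastrocnemius libraries to 23.7 to 27.2 in Acvr1b KO and 14.03 to 23.4 in double KO. In soleus Acvr1b was 29.1 to 46.0 CPM in control, 11.1 to 13.9 in Acvr1b KO and 6.93 to 10.1 in double KO. Tgfbr1, counted over the whole gene, was 22.9 to 37.5 CPM in control, 24.6 to 31.8 in Tgfbr1 KO and 38.4 to 56.3 in double KO gastrocnemius. Which exons were deleted is not given in the sources used here, so these counts do not check the Tgfbr1 labels. Mouse 1 of the double KO group stood apart in both muscles. In its soleus the stress gene Gadd45a was at 803 CPM against 9.75 to 12.01 in the other 3 double KO mice, Myog at 46.5 against 2.28 to 2.45, and the summed slow-fibre markers at 9598 against 18870 to 20780. Among the gastrocnemius libraries 2 more were unusual: control 1 had 25.99% mitochondrial counts, the highest share of all, and Tgfbr1 KO 1 had the lowest total. The double KO mice carry animal numbers from a range of their own, so genotype and any difference between cohorts cannot be told apart.

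Levels of different genes were compared per kilobase of merged exons. On this scale Igfbp5 had the highest and Igf2 the lowest mean of the 10 genes in all 8 groups. In Acvr1b KO soleus the Igfbp5 libraries, at 21.2 to 48.25 CPM per kilobase, overlapped those of Akt2, at 17.85 to 22.25. In control gastrocnemius the means were 119.5 CPM per kilobase for Igfbp5, 39.8 for Ddit4l, 29.9 for Akt2, 10.4 for Irs2, 7.19 for Igfbp4, 4.16 for Igfbp3, 3.18 for Irs1, 1.57 for Igf1, 1.38 for Igf1r and 0.123 for Igf2. The ranges of neighbours in this order overlapped for Ddit4l and Akt2, for Igfbp3 and Irs1, for Irs1 and Igf1, and for Igf1 and Igf1r. In control soleus the order of the means was Igfbp5 at 37.2, Akt2 at 21.2, Igfbp4 at 8.95, Ddit4l at 7.90, Igfbp3 at 5.23, Irs2 at 4.00, Irs1 at 2.29, Igf1r at 1.23, Igf1 at 0.653 and Igf2 at 0.0818 CPM per kilobase. In control soleus the ranges overlapped for Igfbp4 and Ddit4l and for Igfbp3 and Irs2, so the order of the means within these pairs is not beyond their spread.

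In double KO gastrocnemius 5 of the 10 genes were called against control. Igfbp5, Ddit4l and Akt2 rose, Igf1 and Igf1r fell, and Igf2, Igfbp3, Igfbp4, Irs1 and Irs2 did not pass the test. Over all 17536 genes tested in this comparison 20.9% were called, 11.4% as higher and 9.59% as lower, so widespread change is the background of these calls. The libraries of double KO and control did not overlap for 3 of the 10 genes, Igf1r, Igfbp5 and Akt2, beside 21.3% of all genes tested. The members' median log2 change was 0.21 and that of all genes 0.00041. These are whole-muscle values, in which fewer cells of a type and less RNA per cell cannot be told apart.

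Among the ligands, Igf1 was at 26.9, 9.18, 15.9 and 10.2 CPM in control gastrocnemius and at 10.99, 7.73, 7.37 and 4.78 in double KO. The control libraries spread widely, and their range overlapped that of the double KO. The log2 change was -1.01 (SE 0.313, edgeR adjusted p = 0.0301). Without control 1, the library with the most mitochondrial counts, it was -0.60 (adjusted p = 0.116). The call was also lost without double KO 2, 3 or 4 or control 3, with adjusted p from 0.0533 to 0.0933, with no filter on low counts (0.0891) and with only the 2 groups in the fit (0.0896). It was kept without mouse 1 (log2 -1.24, adjusted p = 0.0135) and without double KO 1, control 1 and Tgfbr1 KO 1 together (-0.82, adjusted p = 0.0193). The Acvr1b KO libraries, at 6.68, 10.4, 9.86 and 9.42 CPM, lay near the double KO, and the Tgfbr1 KO libraries, at 8.76, 13.6, 17.6 and 13.2, near the control. Igf2, an imprinted growth factor of fetal tissues, was barely present, with 815 counts over all 32 libraries. It ranged from 0.490 to 0.825 CPM in control and from 0.635 to 1.26 in double KO gastrocnemius (log2 change 0.44, SE 0.287, edgeR adjusted p = 0.301).

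The receptor gene Igf1r was at 21.2, 24.5, 23.7 and 23.02 CPM in control and at 19.2, 19.4, 17.4 and 18.1 in double KO gastrocnemius. All 4 double KO libraries lay below all 4 controls, but the difference was small, with a log2 change of -0.31 (SE 0.0953, edgeR adjusted p = 0.0306). The adjusted p rose to between 0.0645 and 0.0948 when double KO 3, double KO 4, control 2 or control 3 was left out, and was 0.0529 with no filter on low counts. Acvr1b KO libraries, at 20.2 to 27.1 CPM, and Tgfbr1 KO libraries, at 18.6 to 23.6, overlapped the control. The lowest Tgfbr1 KO library also lay within the double KO range. Igf1r was not called in double KO against Tgfbr1 KO (log2 -0.18, edgeR adjusted p = 0.262).

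Igfbp5 showed the largest and clearest change of the 10 genes. Its protein binds IGFs in the extracellular matrix, and it is known as a binding protein made by muscle cells themselves. Control gastrocnemius libraries were at 652, 526, 1167 and 527 CPM. The 4 double KO libraries were at 1989, 1998, 2036 and 1863 CPM, a narrow range that lay above every other gastrocnemius library. Acvr1b KO libraries were at 710, 729, 699 and 699.5 CPM and Tgfbr1 KO libraries at 743, 699, 983 and 697, all within the control range. The fold change of double KO over control was 2.76 (log2 1.47, SE 0.200, edgeR adjusted p = 7.44e-05), and with each library left out in turn the log2 change lay between 1.34 and 1.81. Igfbp5 also rose against Acvr1b KO (log2 1.48, adjusted p = 9.48e-05) and against Tgfbr1 KO (log2 1.35, adjusted p = 0.000325).

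**Figure D1:**
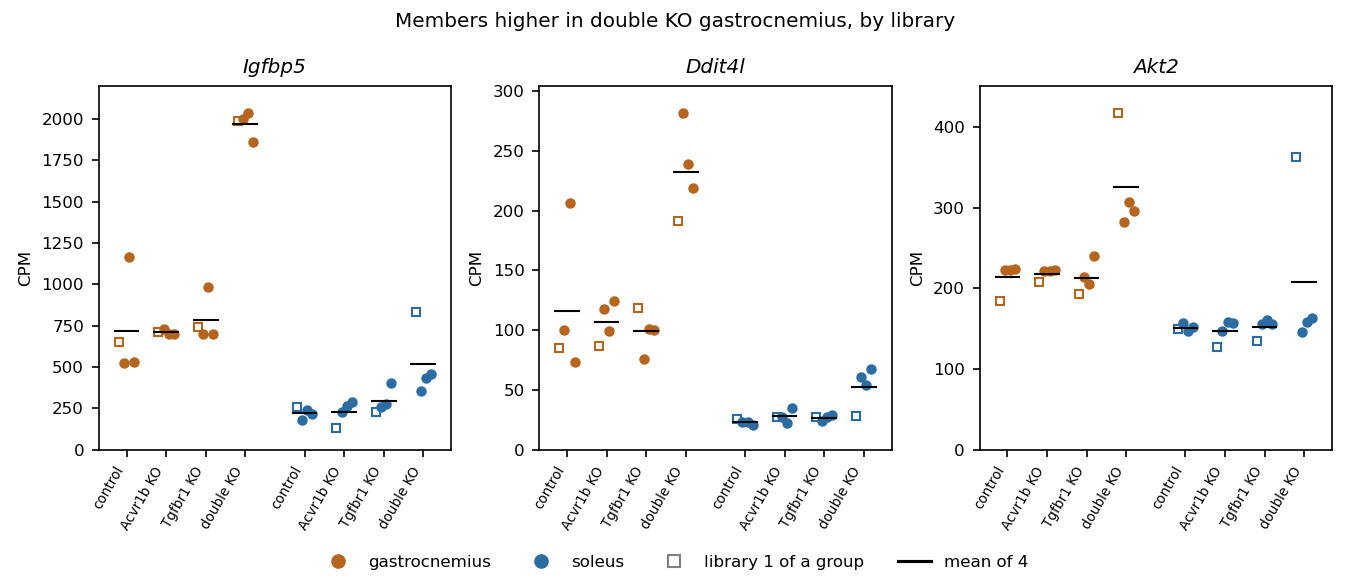
Igfbp5, Ddit4l and Akt2 in CPM (linear axis from 0) in each of the 32 libraries, by muscle and genotype. Bars are means of 4 libraries and open squares mark library 1 of each group. The 4 double KO gastrocnemius libraries sit between 1863 and 2036 CPM for Igfbp5, above all other gastrocnemius libraries, and library 1 of the double KO is the highest for Akt2 in both muscles.

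The other binding proteins did not pass the test in gastrocnemius. Igfbp3, the main carrier of IGF in serum, ranged from 9.11 to 16.1 CPM in control and from 13.2 to 14.8 in double KO (log2 change 0.08, SE 0.188, edgeR adjusted p = 0.796). Igfbp4, a binding protein that is cut by the protease PAPP-A, ranged from 28.3 to 35.1 CPM in control and from 32.2 to 41.5 in double KO, where mouse 1 was above all other gastrocnemius libraries (log2 change 0.16, SE 0.111, edgeR adjusted p = 0.325). Of the 3 binding proteins followed, Igfbp5 was therefore the one called.

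The adaptors did not pass the test either. Irs1, a docking protein of the insulin and IGF1 receptors, was at 33.1, 21.7, 38.1 and 23.2 CPM in control gastrocnemius and at 22.4, 44.5, 37.4 and 34.6 in double KO. Mouse 1 was the lowest of the double KO libraries, and the groups overlapped (log2 change 0.27, SE 0.214, edgeR adjusted p = 0.409). Against Acvr1b KO, whose libraries ranged from 19.2 to 32.5 CPM, the log2 change of Irs1 was 0.58 (adjusted p = 0.0768), and without mouse 1 it passed the test at 0.74 (adjusted p = 0.0199). Irs2, the second adaptor and a known FoxO target in liver, was at 53.5, 59.9, 89.8 and 59.8 CPM in control and at 58.9, 40.5, 38.5 and 38.3 in double KO. Here mouse 1 was the highest double KO library and the only one inside the control range. The log2 change of -0.56 (SE 0.213, edgeR adjusted p = 0.0709) became -0.75 without that mouse (adjusted p = 0.0198), and DESeq2 also called Irs2 with all libraries (adjusted p = 0.0409).

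Akt2, the AKT isoform that mediates insulin-stimulated glucose uptake, was at 184, 223, 223 and 224 CPM in control gastrocnemius and at 417.5, 282, 307 and 295 in double KO. Every double KO library was above every library of the other 3 genotypes, and mouse 1 was the highest. The fold change was 1.54 (log2 0.62, SE 0.112, edgeR adjusted p = 0.00085). Without mouse 1 the log2 change was 0.47 and still called. Akt2 also rose against Acvr1b KO (log2 0.59, adjusted p = 0.00172) and against Tgfbr1 KO (log2 0.63, adjusted p = 0.00151).

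Ddit4l, which encodes REDD2, an inhibitor of mTORC1 signalling related to REDD1, was at 84.7, 100.3, 206 and 73.1 CPM in control gastrocnemius. The double KO libraries were at 191, 282, 239 and 219 CPM. Only control 3, the control that was also highest for Igfbp5, reached into the double KO range. The fold change was 2.02 (log2 1.01, SE 0.253, edgeR adjusted p = 0.00914), with a log2 change between 0.84 and 1.45 when each library was left out in turn. Acvr1b KO libraries, at 86.5 to 124 CPM, and Tgfbr1 KO libraries, at 76.2 to 119, did not reach the double KO range. The log2 change of double KO was 1.13 against Acvr1b KO (adjusted p = 0.00567) and 1.25 against Tgfbr1 KO (adjusted p = 0.00392).

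The upstream sequences of Igfbp5 and Ddit4l are shown because these were the 2 genes with the largest rise in double KO gastrocnemius. They are from RefSeq on GRCm38.p6 and end at the transcript start, except that the 19 bases of the Igfbp5 window inside the Ensembl first exon are left out. The Igfbp5 stretch is chr1:72874885-72875115 on the minus strand, and that of Ddit4l is chr3:137623422-137623671 on the plus strand. Capitals mark matches to the E-box CANNTG, the motif that myogenic bHLH factors bind. The RefSeq transcript start at which the Ddit4l window ends lies 2060 bases downstream of the start of the Ensembl gene.
Igfbp5: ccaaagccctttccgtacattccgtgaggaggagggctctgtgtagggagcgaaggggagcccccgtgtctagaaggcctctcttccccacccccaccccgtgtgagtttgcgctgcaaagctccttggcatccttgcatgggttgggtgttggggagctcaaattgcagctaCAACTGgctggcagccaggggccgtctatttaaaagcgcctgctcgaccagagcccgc
Ddit4l: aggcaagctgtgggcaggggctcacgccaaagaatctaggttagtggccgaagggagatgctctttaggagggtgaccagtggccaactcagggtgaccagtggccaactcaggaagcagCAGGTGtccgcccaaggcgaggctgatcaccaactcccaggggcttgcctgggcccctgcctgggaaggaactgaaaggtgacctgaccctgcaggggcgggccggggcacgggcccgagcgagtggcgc
Each gene's 250-base window held 1 E-box match, and the windows of 66.2% of 32851 RefSeq promoters held at least 1. Neither window held the SMAD box CAGAC or its reverse complement GTCTG, which 42.2% of windows held, or the FoxO element GTAAACA or its reverse complement TGTTTAC, which 3.17% held. Among the 16 windows found for the 10 genes, 7 held CAGAC on either strand, in Igf2, Igf1r, Irs1 and Akt2, and none held the FoxO element.

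The comparisons with the single knockouts share the double KO libraries with the comparison against control. Against Acvr1b KO, 3 of the 10 genes rose and Igf1r fell (log2 -0.31, edgeR adjusted p = 0.0339), where 16.3% of all genes were called, 9.2% as higher and 7.06% as lower. The Igf1r call was lost in 6 of the 8 fits with a library left out, all but those without double KO 1 and Acvr1b KO 4, with adjusted p up to 0.134 without Acvr1b KO 3. Against Tgfbr1 KO 3 genes, Igfbp5, Akt2 and Ddit4l, rose and none fell, where 12.9% of all genes were called and 7.44% as higher. With double KO 1, control 1 and Tgfbr1 KO 1 all left out, 6 genes were called against Acvr1b KO, with Irs1 as higher (log2 0.73, adjusted p = 0.0196) and Irs2 as lower (-0.61, adjusted p = 0.0459) beside the other 4, and Igf1 also passed the test against Tgfbr1 KO (log2 -1.15, adjusted p = 0.00418).

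Single loss of either receptor left the 10 genes uncalled in both muscles. In Acvr1b KO gastrocnemius edgeR called 0 of 10, with 1 at an unadjusted p under 0.05 (Igf1, log2 change -0.78), and DESeq2 called 0; 0.0285% of all genes were called. In Tgfbr1 KO gastrocnemius edgeR called 0 of 10, with 0 at an unadjusted p under 0.05, and DESeq2 called 0; 0.171% of all genes were called. In soleus edgeR and DESeq2 called 0 of 10 in both single knockouts, with 0 at an unadjusted p under 0.05, where 0.022% of all genes were called in Acvr1b KO and 0.0496% in Tgfbr1 KO. The estimates for Igfbp5 in gastrocnemius were -0.02 (SE 0.196) in Acvr1b KO and 0.12 (SE 0.196) in Tgfbr1 KO. Those for Akt2 were 0.04 (SE 0.112) and -0.00 (SE 0.112), and those for Ddit4l -0.12 (SE 0.251) and -0.23 (SE 0.252).

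**Figure D2:**
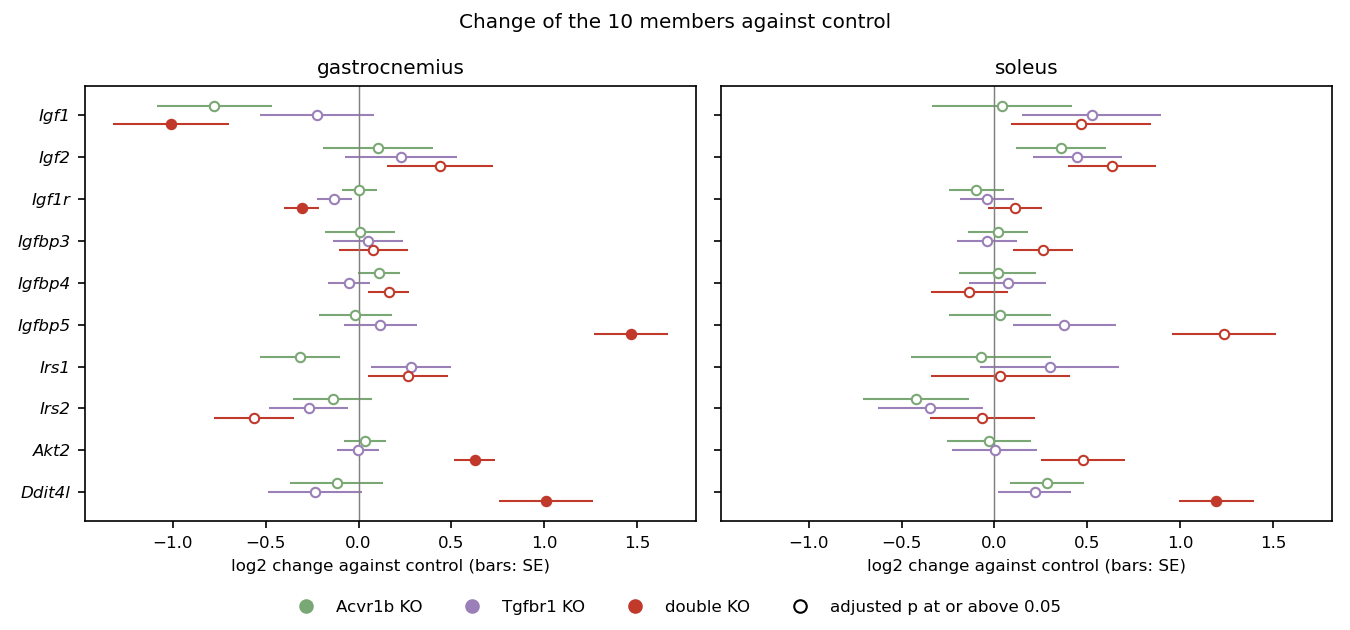
Log2 change against control of the 10 genes in Acvr1b KO, Tgfbr1 KO and double KO, for gastrocnemius and soleus. Points are edgeR estimates, bars are 1 SE, and filled points have an adjusted p under 0.05. Only double KO points are filled, 5 in gastrocnemius and 1 in soleus, and the largest is Igfbp5 in gastrocnemius at 1.47.

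Whether the double KO departed from the sum of the single knockouts was tested with the contrast double KO minus Acvr1b KO minus Tgfbr1 KO plus control. In gastrocnemius 1 of the 10 genes was called, Igfbp5, with an excess of 1.37 (SE 0.279, edgeR adjusted p = 0.0154), where 2.14% of all genes were called and 1.48% as higher. The excess was 1.36 for Ddit4l (SE 0.357, adjusted p = 0.0568) and 0.59 for Akt2 (SE 0.158, adjusted p = 0.0633). Both passed the test without mouse 1, Ddit4l at 1.44 (adjusted p = 0.0454) and Akt2 at 0.44 (adjusted p = 0.0381), and both were called by DESeq2. Both were also called without control 1, Akt2 without double KO 2, and Ddit4l without control 4. For Igf1 the excess was -0.01 (SE 0.437), close to the sum of the single knockouts. In soleus edgeR called 0 of 10, with 1 at an unadjusted p under 0.05 (Ddit4l, 0.70), DESeq2 called 0, and 0% of all genes were called.

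In double KO soleus 1 of the 10 genes was called against control, where 0.722% of all 18143 genes tested were called and 0.22% as higher. The median log2 change was 0.36 for the 10 genes and 0.04 for all genes. The gene called was Ddit4l, at 25.8, 22.9, 23.1 and 20.3 CPM in control and at 27.9, 61.1, 54.4 and 67.2 in double KO. All double KO libraries were above the controls, but mouse 1 was close to them and apart from the other 3. The log2 change was 1.20 (SE 0.200, edgeR adjusted p = 0.0101), and 1.40 without mouse 1 (adjusted p = 6.13e-05). With only double KO and control in the fit the adjusted p was 0.13. Against Acvr1b KO, whose Ddit4l libraries were at 22.4 to 34.5 CPM, the log2 change was 0.91 (adjusted p = 0.113), and against Tgfbr1 KO, at 24.1 to 29.1 CPM, it was 0.98 (adjusted p = 0.131). Both passed the test without mouse 1, at 1.12 (adjusted p = 0.00319) and 1.18 (adjusted p = 4e-04), and with DESeq2. With edgeR 0 of 10 genes were called against either single knockout, with 3 and 2 at an unadjusted p under 0.05, where 0.127% and 0.0496% of all genes were called and DESeq2 called 2 and 1.

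Igfbp5 in soleus was at 256, 181.5, 240 and 217 CPM in control and at 832, 354.5, 432 and 459 in double KO. The groups did not overlap, and mouse 1 was far above the other 3. The log2 change of 1.23 (SE 0.281) missed the threshold with edgeR (adjusted p = 0.0555) and passed it with DESeq2 (adjusted p = 0.00163) and without double KO 2 (edgeR adjusted p = 0.0359). Without mouse 1 it was 0.89 (adjusted p = 0.0733). Double KO and control libraries did not overlap for 3 of the 10 genes in soleus, Igfbp5, Ddit4l and Igf2, beside 7.82% of all genes tested. Igf2 was at 0.336 to 0.570 CPM in control and 0.635 to 0.789 in double KO, with a log2 change of 0.63 (SE 0.238, edgeR adjusted p = 0.289).

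For 5 further genes in soleus, mouse 1 lay outside the range of the other 15 libraries. Akt2 was at 363 CPM in its soleus and at 146, 158 and 164 in the other double KO mice, next to 147 to 157 in control. The log2 change of Akt2 in soleus was 0.48 (SE 0.227, edgeR adjusted p = 0.414). Irs1 was at 5.97 CPM in mouse 1 and at 24.2 to 28.9 in the other 3, Irs2 at 42.4 against 17.1 to 18.7, Igf1r at 29.4 against 18.6 to 20.9, and Igfbp3 at 25.1 against 14.4 to 19.4. In the gastrocnemius of the same mouse Akt2 and Irs2 were likewise the highest and Irs1 the lowest of the double KO libraries, while Igfbp5 was level with the others. Its macrophage markers summed to 98.6 CPM in soleus and 81.7 in gastrocnemius, above all other libraries of each muscle, and its slow-fibre markers were the lowest of each muscle. The part of these differences in the values of the 10 genes was not tested.

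**Figure D3:**
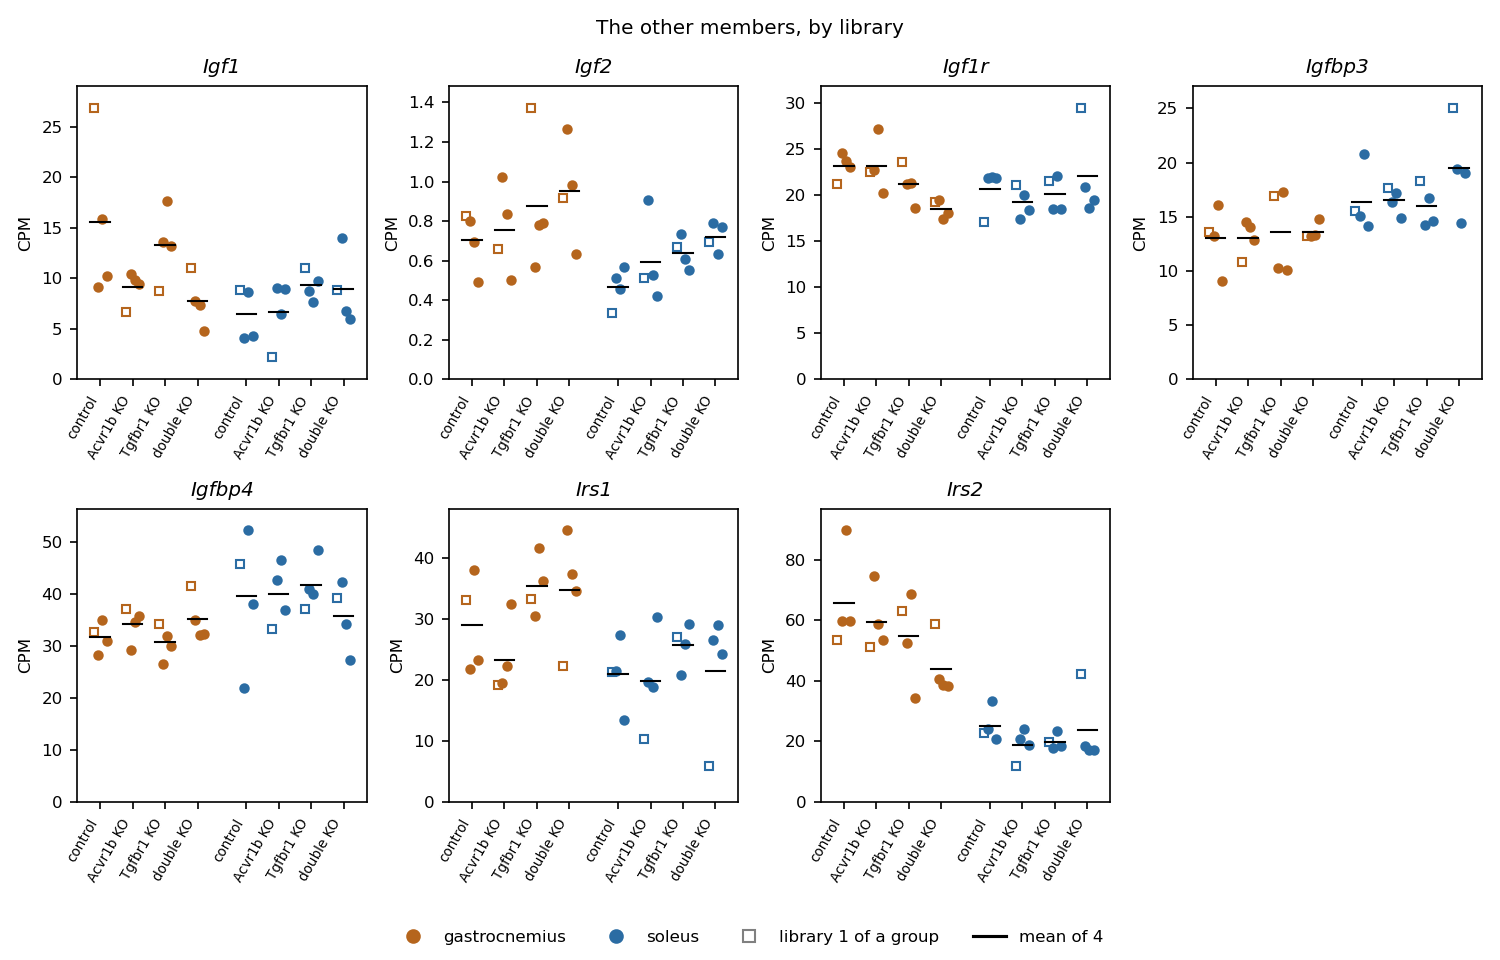
The other 7 genes in CPM (linear axes from 0) in each of the 32 libraries, by muscle and genotype. Bars are means of 4 libraries and open squares mark library 1 of each group. In double KO soleus library 1 is the highest for Igf1r at 29.4 CPM and Irs2 at 42.4 CPM and the lowest for Irs1 at 5.97 CPM.

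Igf1 in soleus varied more within genotypes than between them. The control libraries were at 8.80, 4.12, 8.66 and 4.27 CPM, Acvr1b KO at 2.17, 9.01, 6.497 and 8.95, Tgfbr1 KO at 11.1, 8.76, 7.70 and 9.74, and double KO at 8.81, 14.03, 6.79 and 5.97. Igf1 in muscle is made by interstitial fibroblasts and macrophages as well as by fibres. In Acvr1b KO 1, the library lowest for Igf1, the 6 fibroblast markers summed to 193 CPM against 672 to 809 in the other 3, and the 5 tendon-cell markers to 55.0 against 406 to 561. In control 2, lowest of its group for Igf1, the same sums were 349.8 against 562 to 920 and 206 against 406 to 752. Control 4, almost as low for Igf1, had sums of 562 and 447 CPM, within the range of the other 2 controls for tendon-cell markers and below it for fibroblast markers. The part of these markers in the Igf1 values was not tested. The log2 change of double KO against control was 0.47 (SE 0.377, edgeR adjusted p = 0.668). Igfbp3 (log2 0.26, adjusted p = 0.551) and Igfbp4 (log2 -0.13, adjusted p = 0.85) did not pass the test in soleus.

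The 2 muscles differed in 5 of the 10 genes in control mice, all lower in soleus, where 40.4% of all genes were called and 20% as lower. Ddit4l had the largest difference, from a mean of 116 CPM in gastrocnemius to 23.04 in soleus (log2 -2.33, SE 0.252, edgeR adjusted p = 1.6e-08). Igfbp5 followed, from 718 to 224 CPM (log2 -1.68, adjusted p = 4.32e-06), then Irs2, from 65.7 to 25.3 CPM (log2 -1.38, adjusted p = 9.52e-05). Igf1 was lower by a log2 difference of -1.26 (adjusted p = 0.00653), and by -0.89 (adjusted p = 0.0541) without gastrocnemius control 1. Akt2 was lower by -0.50 (adjusted p = 0.0277), a call that was lost in 5 of the 8 fits with a library left out (without gastrocnemius control 2, 3 or 4 or soleus control 1 or 3), with adjusted p between 0.0558 and 0.0596 in those. With the mouse as a block, since both muscles came from each mouse, Igfbp3 was also called as higher in soleus (0.34, adjusted p = 0.0381) and Irs1 as lower (-0.48, adjusted p = 0.0471). With single libraries left out, Igfbp4 was called as higher in soleus without soleus control 2 (0.47, adjusted p = 0.0078) and Igf2 as lower without gastrocnemius control 4 (-0.73, adjusted p = 0.0467).

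In double KO mice the soleus again had lower Ddit4l (log2 -2.14), Igfbp5 (-1.92), Irs2 (-0.88) and Akt2 (-0.65), and higher Igfbp3 (0.51, edgeR adjusted p = 0.0215), so that 5 of the 10 genes were called beside 39.7% of all genes (21.6% as higher and 18.1% as lower). Without mouse 1 the Igfbp3 difference was 0.31 (adjusted p = 0.22). With only these 2 groups in the fit Akt2 (adjusted p = 0.148), Irs2 (0.071) and Igfbp3 (0.0502) were not called, and with the mouse as a block Irs1 was called as lower in soleus (log2 -0.86, adjusted p = 0.00158). With single libraries left out, Irs1 was called as lower without gastrocnemius double KO 1 (-0.86, adjusted p = 0.0452) and Igf1r as higher without soleus double KO 3 (0.33, adjusted p = 0.0388). The Irs1 fit kept the soleus library of the same mouse, the lowest for Irs1 at 5.97 CPM. Without mouse 1 in both muscles edgeR called 4 of the 10 genes, 0 as higher and 4 as lower. Whether the effect of double knockout itself differed between muscles was tested as an interaction. With edgeR 0 of 10 genes were called, with 2 at an unadjusted p under 0.05 (Igf1 and Igf1r), DESeq2 called 0, and 0.732% of all genes were called. The double KO effect in soleus minus that in gastrocnemius was -0.24 (SE 0.350) for Igfbp5, 0.19 (SE 0.339) for Ddit4l, -0.15 (SE 0.253) for Akt2 and 1.47 (SE 0.514, adjusted p = 0.273) for Igf1. For Igf1 it was 1.42 with the mouse as a block (adjusted p = 0.0463), and for Akt2 it was -0.57 without soleus double KO 1 (adjusted p = 0.0321). The latter fit kept the gastrocnemius library of the same mouse, the highest for Akt2 at 417.5 CPM. Without mouse 1 in both muscles edgeR called 0 of the 10 genes for this difference.

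The rest of the pathway was read from a list of 73 further genes, of which 66 were tested in gastrocnemius and 68 in soleus. In double KO gastrocnemius 7 rose and 21 fell, beside 11.4% and 9.59% of all genes; the median log2 change was -0.15 for the list and 0.00041 for all genes. In double KO soleus 0 rose and 2 fell with edgeR, beside 0.502% of all genes called as lower, with 14 of 68 at an unadjusted p under 0.05, and DESeq2 called 0 and 5. Among ligand neighbours and receptors, H19, the noncoding RNA gene next to Igf2, rose from 352 to 465 CPM in control to 614 to 708 in double KO gastrocnemius (log2 0.63, edgeR adjusted p = 0.00374). In soleus H19 was higher in both groups, at 1242 to 1546 and 1384 to 1662 CPM, and did not pass the test (0.09). The insulin receptor gene Insr fell from 99.8 to 112 CPM to 68.2 to 75.96 in gastrocnemius (log2 -0.54, adjusted p = 0.000219). Igf2r, which clears IGF2, did not pass the test in gastrocnemius (0.11) or soleus (0.33).

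Of 4 tested genes for proteases that cut binding proteins and for inhibitors of these proteases, 3 fell in gastrocnemius, beside 9.59% of all genes. Htra1, a secreted serine protease, fell from 39.2, 66.0, 61.0 and 52.7 CPM in control to 19, 12.2, 11.7 and 11.1 (log2 -2.003, SE 0.191, edgeR adjusted p = 2.33e-06). In soleus Htra1 was at 7.72 to 15 CPM in control and 9.19 to 11.2 in double KO, and the effects in the 2 muscles differed by 1.83 (SE 0.266, adjusted p = 0.000262). With edgeR 2 of the 68 listed genes tested were called for this difference, beside 0.732% of all genes, and DESeq2 called 4. The other edgeR call was Pik3cb, a catalytic subunit of PI3-kinase named here after its values were seen (0.76, edgeR adjusted p = 0.0246). Pappa, the protease PAPP-A, was at 0.439 to 1.02 CPM in control and 0.0294 to 0.458 in double KO gastrocnemius. It fell by 1.82 on the log2 scale (adjusted p = 0.0171). Stc1, an inhibitor of PAPP-A, fell by 1.21 (adjusted p = 0.00695), with overlapping ranges of 7.61 to 22.1 CPM in control and 5.43 to 9.98 in double KO. In soleus its ranges did not overlap, at 17 to 33.7 and 6.64 to 16.2 CPM. There edgeR called 0 of the 5 tested genes for such proteases and inhibitors, with 1 at an unadjusted p under 0.05, and DESeq2 called 1. Without double KO 4 the adjusted p of Pappa was 0.0575. Of 3 further genes listed with the binding proteins and tested in gastrocnemius 2 fell. Igfals, the acid-labile subunit of the serum IGF complex, fell by 1.01 from a mean of 2.41 CPM (adjusted p = 0.000979), and Igfbp7, named here after its values were seen, fell by 0.29 (adjusted p = 0.0341).

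Of 10 genes of the PI3-kinase step 3 rose and 1 fell in gastrocnemius, beside 11.4% and 9.59% of all genes, so the share that fell was close to the background. The regulatory subunit genes Pik3r3 (log2 1.02, edgeR adjusted p = 2.5e-06) and Pik3r2 (0.49, adjusted p = 0.0098) and the catalytic subunit gene Pik3cd (0.77, adjusted p = 0.00285) rose. Pik3r3 was at 4.15 to 4.93 CPM in control and 8.63 to 9.26 in double KO. Of 11 further adaptor genes tested in gastrocnemius 2 rose and 4 fell, beside 11.4% and 9.59% of all genes. The 2 that rose, Grb2 (0.36, adjusted p = 0.000366) and Sh2b1 (0.31, adjusted p = 0.0335), did so slightly. Sh2b1 was not called without double KO 3 or 4 or control 1 or 3, with adjusted p between 0.073 and 0.104. It was also not called without a filter on low counts (0.064). Akt1, the isoform beside Akt2, was at 39.9 to 54.0 CPM in control and 43.3 to 61.9 in double KO (log2 0.07, adjusted p = 0.71).

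Of 9 AKT targets 6 fell in gastrocnemius and 1 in soleus, and of 14 genes of mTOR and its regulators 1 rose and 3 fell in gastrocnemius and 1 fell in soleus. Over all genes 11.4% rose and 9.59% fell in gastrocnemius and 0.502% fell in soleus, so the share of mTOR genes that rose was not above the background. Of 6 translation targets edgeR called 0 in either muscle, with 2 in gastrocnemius and 0 in soleus at an unadjusted p under 0.05, and DESeq2 called 1 and 0. Foxo1, a transcription factor that AKT inhibits and that drives atrophy genes, was at 182, 201, 191 and 187 CPM in control and at 124, 59.2, 60.5 and 69.4 in double KO gastrocnemius (log2 -1.26, edgeR adjusted p = 0.000741). In soleus Foxo1 was at 90.9 to 136 CPM in control and 49.8 to 66.0 in double KO (-1.002, adjusted p = 0.00896, and 0.0595 with only these 2 groups in the fit). Sesn1, a stress-induced inhibitor of mTORC1, fell by 1.18 in gastrocnemius (adjusted p = 0.00367) and by 1.07 in soleus (adjusted p = 0.0123). Its relative Sesn2 rose in gastrocnemius (0.70, adjusted p = 0.00385).

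Ddit4, which encodes REDD1, the closest relative of Ddit4l, moved the other way from it. In gastrocnemius Ddit4 was at 159, 267, 204 and 231 CPM in control and at 117, 34.8, 18.9 and 40.1 in double KO, with mouse 1 the highest of the double KO (log2 -2.01, SE 0.550, edgeR adjusted p = 0.0157; -2.78 without mouse 1). Without a filter on low counts its adjusted p was 0.0682. In soleus it was at 91.3 to 100 CPM in control and 28.8 to 56.1 in double KO (log2 -1.25, adjusted p = 0.0823), and it passed the test without mouse 1 (-1.48, adjusted p = 0.0332). Control and double KO did not overlap for Ddit4 in either muscle. Tbc1d1, a regulator of glucose transporter traffic, fell by 1.36 in gastrocnemius (adjusted p = 0.00444), where control 3 at 84.3 CPM lay below double KO 1 at 98.7.

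**Figure D4:**
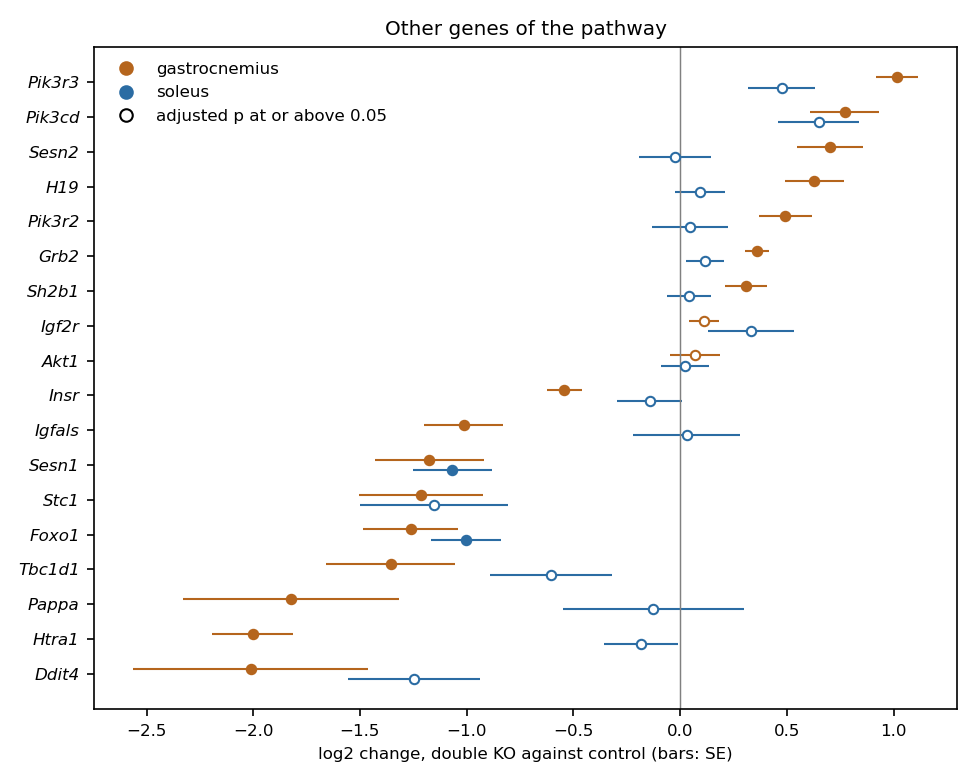
Log2 change of double KO against control for 18 further genes of the pathway in gastrocnemius and soleus. Points are edgeR estimates, bars are 1 SE, and filled points have an adjusted p under 0.05. Foxo1 and Sesn1 are filled in both muscles, and Htra1 lies at -2.003 in gastrocnemius and at -0.18 in soleus.

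Of 59 markers of fibre type and of other cell types 24 were called in double KO gastrocnemius, beside 20.9% of all genes. Of 7 slow-fibre markers 6 fell, and their sum was 705 to 1213 CPM against 1511 to 2351 in control. Of 6 fast-fibre markers 1 rose and 3 fell, with sums of 88300 to 108500 against 113400 to 147800 CPM. Of 6 macrophage markers 4 rose (sums 48.6 to 81.7 against 36.1 to 42.1 CPM), of 6 endothelial markers 3 fell (177 to 195 against 206 to 238), and of 6 fibroblast markers 2 rose (588 to 687 against 555 to 621). Of 5 satellite-cell markers 1 rose and 1 fell, 2 of 5 pericyte and 1 of 4 adipocyte markers fell, and 0 of 5 Schwann cell, 0 of 5 tendon-cell and 0 of 4 neutrophil markers were called. In soleus 0 of 59 markers passed with edgeR and 0 with DESeq2, while the unadjusted p of 6 was under 0.05. The part of these shifts in the changes of the 10 genes was not tested.

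The genes whose levels followed Igfbp5, Akt2, Ddit4l and Igf1r most closely were found among 12962 genes over the 32 libraries, after each muscle's mean log2 level was removed. The libraries share genotype groups and mice, so these correlations are descriptions. For Igfbp5 they were Stam2 (Pearson r 0.914), Eaf1 (0.912) and Zcchc24 (0.896). For Akt2 they were Hgs (0.950), Fntb (0.949) and Slc43a2 (0.944), which fell to 0.794, 0.854 and 0.756 without mouse 1. Ddit4l was followed by Dennd2c (0.847), Tnfsf10 (0.828) and Tbc1d8 (0.828), and Igf1r by Mdm4 (0.749), Anxa7 (0.735) and Morc2a (0.728), the last 3 at 0.659, 0.629 and 0.612 without mouse 1. Among the 10 genes themselves the highest values were 0.776 for Igfbp5 with Akt2 and 0.730 for Igfbp5 with Ddit4l, the latter 0.825 without mouse 1.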

How the data were processed

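Polyadenylated RNA of 32 whole muscles was measured. Per the submitters' processing notes and the file header, the authors used FastQC 0.11.9, cutadapt and HISAT2 (given there as 1.33), and counted reads per gene with featureCounts 2.0.1 on GRCm38 with Ensembl 102, strand-specifically and with multi-mapping reads shared as fractions. DESeq2 is also named in those notes. The deposited values are therefore estimated counts (expected counts); they were rounded to whole numbers. Ddit4l, Igfbp4, Akt2 and Igf1r had fractional counts in 19, 18, 18 and 2 libraries, so some of their reads were multi-mapping. The share of such reads was not measured. Gene lengths are the merged exon lengths the authors deposited. Symbols came from GENCODE M21 by Ensembl identifier (55227 of 55487 matched).

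Groups follow the labels, with 4 mice each; the animal identifiers name 16 separate mice. Counts were tested with edgeR 4.0.16 in R 4.3.3 (quasi-likelihood test, 2-sided, TMM scaling, filterByExpr), on the 16 libraries of a muscle, or on all 32 for comparisons between muscles. p-values were adjusted over all genes tested, with a threshold of 0.05. Alternatives were DESeq2 1.42.0, RLE scaling, no filter on low counts, only the compared groups, blocks by replicate number or mouse, and leaving out each library; leaving out mouse 1 of the double KO in both muscles, or this mouse with gastrocnemius control 1 and Tgfbr1 KO 1, was added after seeing the data. RLE scaling moved the median of all genes by at most 0.034 (log2), between muscles. Across genotypes, replicate numbers do not pair the libraries: same-numbered libraries correlated above 0.1 in 5 of 24 pairs in gastrocnemius and 3 of 24 in soleus. The mouse pairs the muscles. The 10 genes, the pathway list and the marker lists were chosen with earlier results of these data known. Pathway genes named are, per muscle, the up to 8 with the largest rise and fall among those called in double KO against control, with Igf2r, Insr, Akt1, Ddit4, Foxo1 and H19 in any case. The genes whose pattern was most like that of Igf1 are not reported here. Promoter sequences are from RefSeq (GRCm38.p6).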

Additional observations from a re-analysis of the deposited data

Results flagged for a closer look

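Within groups of 4 libraries, 8 of the 80 combinations of gene and group had a highest or lowest library separated from the other 3 by more than Dixon's critical value, which chance gives in about 1 in 20 groups. Mouse 1 of the double KO was 3 of these: Akt2 at 363 CPM and Irs2 at 42.4 CPM in its soleus and Irs2 at 58.9 CPM in its gastrocnemius, each far above the other 3 mice. In gastrocnemius control, Akt2 of library 1 was low at 184 CPM against 223 to 224, and in Acvr1b KO library 1 was low at 207.5 CPM against 221 to 222, a small difference. Igfbp5 of Tgfbr1 KO 3 was high at 983 CPM, Igfbp3 of gastrocnemius double KO 4 was high at 14.8 CPM against 13.2 to 13.3, and Igf1r of soleus control 1 was low at 17.1 CPM against 21.8 to 21.9. For Htra1 the effect of double knockout differed between the muscles by 1.83 on the log2 scale in the interaction test: the gene fell in gastrocnemius and did not pass the test in soleus.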

How the results depend on the processing

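For the 10 genes, no log2 change turned its direction in any comparison where the gene was called under some setting; for the further pathway genes named, Akt1 alone did. Akt1 was at -0.0685 in gastrocnemius and -0.0930 in soleus without mouse 1 of the double KO, and at -0.142 and -0.0930 without all libraries in doubt; with single libraries left out it lay between -0.0685 and 0.140 in gastrocnemius and between -0.0930 and 0.0872 in soleus. Of the 10 genes, double KO against control in gastrocnemius called 5, with 3 under no filter and 3 to 6 with a library left out. Its excess over the single knockouts called 1, with 3 under DESeq2, 3 without mouse 1, 3 without the libraries in doubt and 1 to 3 with a library left out. In soleus double KO against control called 1, with 2 under DESeq2, 0 with only the compared groups and 1 to 2 with a library left out. Double KO against Acvr1b KO in soleus called 0, with 2 under DESeq2, 1 without mouse 1, 1 without the libraries in doubt and 0 to 1 with a library left out; against Tgfbr1 KO it called 0, with 1 under each of these 3 and 0 to 1 with a library left out. The muscles of double KO mice differed in 5, and in 2 with only these groups. The difference of the double KO effect between muscles called 0, with 1 under the mouse as replicate block and 0 to 1 with a library left out. It also called 0 without mouse 1 and 0 without the libraries in doubt. The cause of these shifts was not tested. With the replicate number as a block, double KO against control called 5 of the 10 genes in gastrocnemius and 1 in soleus, the counts without the block; in gastrocnemius 3 and in soleus 1 of the 16 libraries correlated best with a library of its own number.

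Over all genes, double KO against control called 3673 in gastrocnemius and 2330 with only these groups. In soleus it called 131, with 410 under DESeq2, 308 without mouse 1, 35 with only these groups and 64 to 308 with a library left out. The departure from additivity in gastrocnemius called 376, with 734 under DESeq2, 792 without the libraries in doubt and 232 to 548 with a library left out. The difference of the double KO effect between muscles called 137, with 229 under DESeq2, 258 with the mouse as a block, 31 with only the compared groups, 302 without mouse 1, 283 without the libraries in doubt and 72 to 337 with a library left out. Double KO against Acvr1b KO in gastrocnemius called 2852, and 4322 without the libraries in doubt. Acvr1b KO against control called 5 in gastrocnemius and 26 under DESeq2, and Tgfbr1 KO against control 30, with 57 under DESeq2 and 100 without the libraries in doubt. Igf2, at 815 counts over 32 libraries, is limited by depth.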
